A study of Mus musculus with 8 samples.

Results

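The miRNAs of the Rtl1 antisense transcript are 5 hairpins of the imprinted Dlk1-Dio3 region of mouse chromosome 12, namely miR-127, miR-431, miR-433, miR-434 and miR-136. A hairpin is cut into a 5p and a 3p arm, so that the family comprises 10 mature miRNAs. The group was taken up with earlier results of these data known. Its members were set by name, with no threshold on their values, and all 10 were found among the 1966 names of the table. The miRNA-seq libraries came from primary articular chondrocytes of wild-type mice aged 3 weeks, isolated by collagenase from the cartilage of the femoral head. The cells had received vehicle (n = 4 libraries) or 1 ng/ml IL-1β, an inflammatory cytokine of diseased joints (n = 4 libraries), for 24 h. Medium with serum was described for both groups, and no difference other than IL-1β was described. Because each library is bulk RNA, fewer cells with a miRNA and less of it per cell cannot be told apart. No source stated whether the libraries of a group came from separate animals or cultures, so that the tests measure only the spread between these libraries.

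Rtl1 is a protein-coding gene that derives from a retrotransposon and is expressed from the paternal chromosome. The transcript that runs opposite to it is expressed from the maternal chromosome and carries the hairpins. Because each hairpin lies directly across from Rtl1 mRNA, its miRNAs pair with that mRNA over their full length and are known to direct its cleavage. Most other targets of a miRNA are recognized through its seed, bases 2 to 8.

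In the GRCm38 annotation all 5 hairpins lay on the plus strand within the coding sequence of Rtl1, which is on the minus strand (gene body chr12:109589193-109600330, coding part chr12:109590172-109595403, 5232 bases without the stop codon). Their order along the chromosome was Mir431 (chr12:109590447-109590537), Mir433 (chr12:109591715-109591838), Mir127 (chr12:109592846-109592915), Mir434 (chr12:109594506-109594599) and Mir136 (chr12:109595327-109595388). The stretch from the first to the last hairpin was 4942 bases long, and 727 to 1590 bases separated neighbors. Mir136 was located opposite the first codons of Rtl1, at bases 16 to 77 of its coding sequence, and Mir431 opposite its last part, at bases 4867 to 4957.

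**Figure D1:**
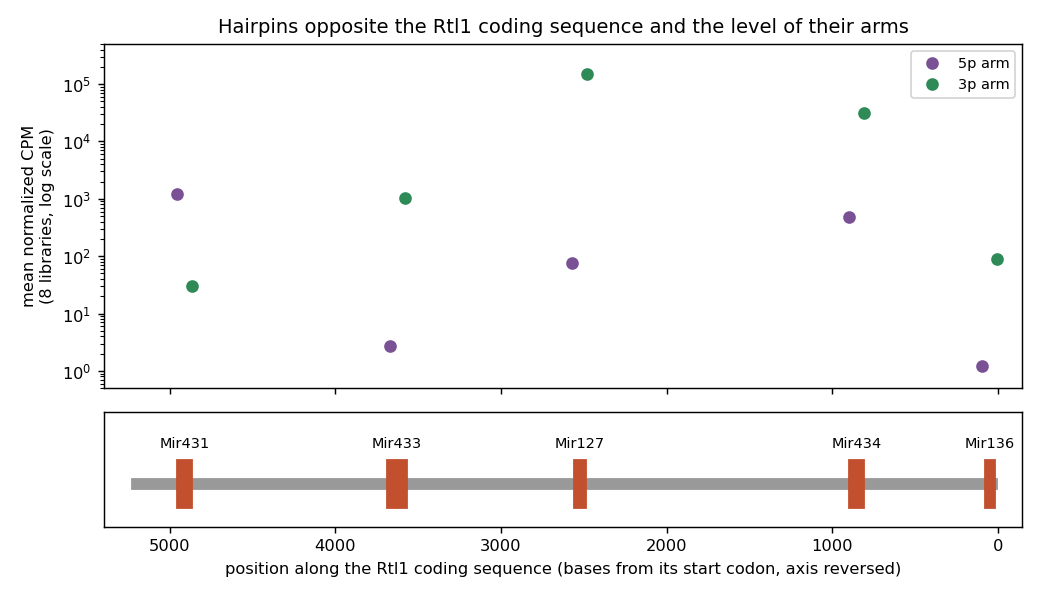
Position of the 5 hairpins opposite the Rtl1 coding sequence (lower panel, boxes to scale, bases counted from the Rtl1 start codon, axis reversed so that the miRNA strand reads from left to right) and the mean normalized CPM of each arm over 8 libraries (upper panel, log scale, the arms of a hairpin drawn side by side). The 3p arms of miR-127 and miR-434 lie at 147356 and 31751 normalized CPM, far above the other 8 arms, and miR-431 is the only hairpin whose 5p arm lies above its 3p arm.

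The mature sequences, from RefSeq (GRCm38.p6), are shown for both arms because the arms are compared with each other in what follows. Capitals mark the seed.
mmu-miR-431-5p: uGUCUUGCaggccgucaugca
mmu-miR-431-3p: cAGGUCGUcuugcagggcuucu
mmu-miR-433-5p: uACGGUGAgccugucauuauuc
mmu-miR-433-3p: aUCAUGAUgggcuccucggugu
mmu-miR-127-5p: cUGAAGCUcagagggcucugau
mmu-miR-127-3p: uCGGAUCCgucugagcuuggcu
mmu-miR-434-5p: gCUCGACUcaugguuugaacca
mmu-miR-434-3p: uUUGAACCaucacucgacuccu
mmu-miR-136-5p: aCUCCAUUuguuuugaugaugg
mmu-miR-136-3p: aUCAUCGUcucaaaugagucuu

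The 10 arms had 10 distinct seeds, and none of these seeds occurred in any other of the 1679 mature miRNAs of that reference. The hairpins are therefore neighbors by position and not a seed family. The full reverse complement of each of the 10 arms was found in the annotated Rtl1 transcript. In no transcript of another gene was it found, except for both arms of miR-136, whose complement was also contained in Mir3071, a hairpin on the opposite strand. The arms of miR-431 shared a run of 10 bases, GUCUUGCAGG, which began at base 2 of the 5p arm and at base 7 of the 3p arm. Those of miR-434 shared 9 bases, UUUGAACCA, which began at base 14 of the 5p arm and base 1 of the 3p arm.

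The total per library was between 616475 and 1568367 counts. Each count equalled 0.625 to 1.5996 normalized CPM (counts per 1000000 counts of the library after TMM scaling), and the 3 counts that an observed 0 allows equalled 1.87 to 4.799. IL-1β replicate 4 stood apart from the other libraries. Over the 195 miRNAs that averaged 50 counts or more, the SD of its log2 differences from the mean of the other 3 IL-1β libraries was 0.40, against 0.15 to 0.23 for the remaining 7 libraries. Cartilage miRNAs (both arms of miR-140 and miR-455) summed to 153547 to 168966 normalized CPM with vehicle and 132602 to 155815 with IL-1β. Haematopoietic miRNAs summed to 43.5 to 62.5 and 25.6 to 45.5 normalized CPM, with 4 of 6 at 0, miR-142a-3p and miR-223-3p among them. The part of other cells in the values that follow was not tested. In addition, the summed muscle, endothelial, epithelial and neural lists had 0, 8, 7 and 3 counts in all.

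The Rtl1 antisense miRNAs made up a large part of the miRNA reads of these chondrocytes. In vehicle replicates 1 to 4 the 10 arms together took 18.9%, 18.5%, 18.3% and 17.9% of all counts. In IL-1β replicates 1 to 4 they took 18.01%, 17.5%, 18.04% and 18.3%. The groups overlapped. The mean was 18.4% ± 0.400 under vehicle and 17.98% ± 0.345 under IL-1β (SD, n = 4). The difference of -0.43 percentage points did not pass a two-sided exact permutation test (p = 0.200, where 0.0286 is the smallest possible). As a sum of normalized CPM, expressed in percent, the difference was -0.07 percentage points (exact permutation test, p = 0.943). Most of the sum was miR-127, at 13.7% to 16.2% of a library, and miR-434, at 1.96% to 3.54%.

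The level of the arms spanned a wide range. By mean normalized CPM per nucleotide of listed length, miR-127-3p came first at 6698, followed by miR-434-3p at 1443. The next were miR-431-5p (57.2), miR-433-3p (47.7), miR-434-5p (21.97), miR-136-3p (4.05), miR-127-5p (3.41) and miR-431-3p (1.36). miR-433-5p (0.123) and miR-136-5p (0.0544) were the scarcest. Over the 8 libraries the ranges of neighbors in this order were separate, except for miR-431-5p and miR-433-3p, for miR-136-3p and miR-127-5p, and for miR-433-5p and miR-136-5p, which overlapped. Among the 1003 names with at least 1 count, miR-127-3p ranked 2 and miR-434-3p ranked 8. Ligation and amplification favor some small RNAs over others, so that levels of different miRNAs are not molar amounts.

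**Figure D2:**
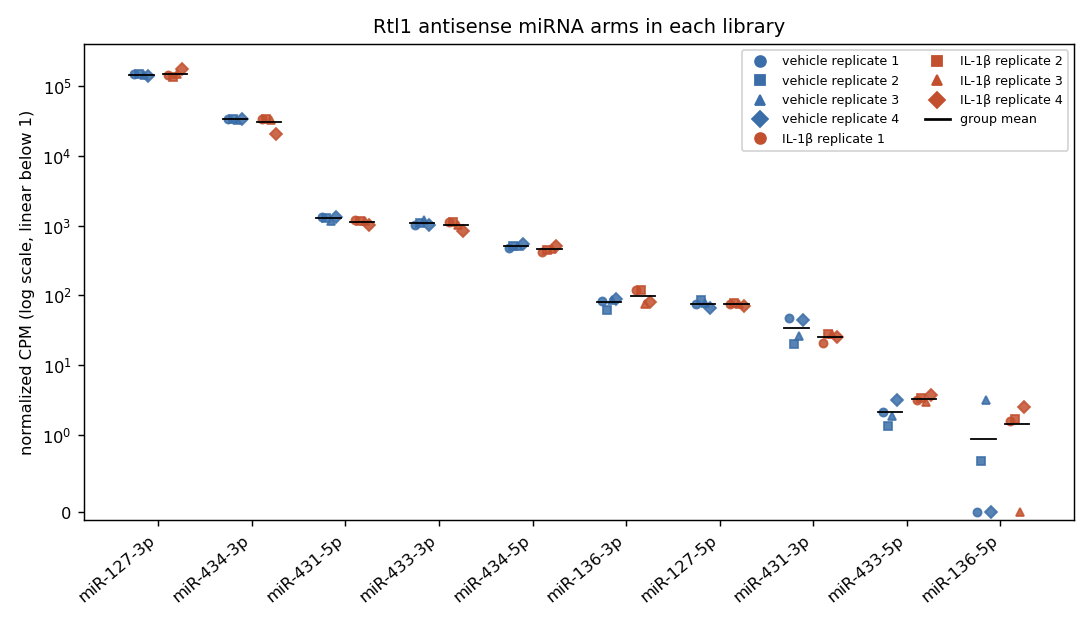
Normalized CPM (log scale, linear below 1) of the 10 arms in each of the 4 vehicle and 4 IL-1β libraries, with the group mean as a line. For every arm the vehicle and IL-1β values overlap, and the IL-1β replicate 4 value of miR-434-3p, 20508, lies below the 7 others, which run from 32348 to 33991.

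Next, each arm was compared between IL-1β and vehicle in a fit over all 564 miRNAs tested (edgeR quasi-likelihood test). All 10 arms were tested, and 0 were past the threshold of a Benjamini-Hochberg adjusted p under 0.05 with an absolute log2 fold change over 0.3. Over all miRNAs tested, 1.95% were called, so that a count of 0 among 10 was near the background. At an unadjusted p under 0.05 there was 1 arm of the 10, miR-431-5p, and 63 of the 564. DESeq2 called 0 of the 10 as well. For 0 of the 10 arms were the groups without overlap in normalized CPM, against 7.62% of all miRNAs tested. Of the 8 arms with enough counts for a fold change, 6 had a log2 fold change below 0 and 2 above. Their median was -0.10. The median over all miRNAs tested was 0.0063, and there miRNAs with few counts were kept. With all 10 arms kept in the same way, 6 were below 0 and 4 above, with a median of -0.067.

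miR-127-3p is the dominant product of its hairpin and has been described as a repressor of BCL6. Vehicle replicates 1 to 4 held 149326, 150776, 143960 and 139719 normalized CPM. IL-1β replicates 1 to 4 held 141390, 132328, 147540 and 173805. IL-1β held both the lowest and the highest library, and the highest was replicate 4. The mean was 145945 ± 5082 under vehicle and 148766 ± 17824 under IL-1β (SD, n = 4), and the log2 fold change was 0.03 (SE 0.0868, edgeR adjusted p = 0.963). Its 95% interval corresponded to a 0.900- to 1.15-fold level with IL-1β. Without IL-1β replicate 4 the log2 fold change was -0.054 (edgeR adjusted p = 0.740).

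miR-127-5p, the other strand of this duplex, was present at 74.2, 86.1, 78.7 and 65.4 normalized CPM with vehicle, replicates 1 to 4. With IL-1β it was at 75.2, 76.7, 74.5 and 70.2. All 4 IL-1β values lay inside the range of vehicle. The log2 fold change was -0.06 (SE 0.138, edgeR adjusted p = 0.924), with an interval of 0.788- to 1.17-fold.

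miR-434 was the second hairpin by abundance. miR-434-3p was nearly constant in 7 libraries. The vehicle replicates 1 to 4 gave 33696, 33513, 32348 and 33991 normalized CPM. The IL-1β replicates 1 to 4 gave 33320, 33750, 32884 and 20508. The first 3 IL-1β libraries lay within the vehicle range, whereas replicate 4 was far below it. The mean was 33387 ± 720.2 under vehicle and 30115 ± 6415 under IL-1β (SD, n = 4). IL-1β over vehicle gave -0.15 on the log2 scale (SE 0.119, edgeR adjusted p = 0.753, interval 0.759- to 1.07-fold). Without IL-1β replicate 4 the log2 fold change was -0.000725 (edgeR adjusted p = 0.988).

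miR-434-5p did not share the low value. It was at 478, 506, 502 and 536 normalized CPM in vehicle replicates 1 to 4, whereas IL-1β replicates 1 to 4 had 424, 452, 462 and 506. In IL-1β replicate 4 this arm was the highest of its group. IL-1β replicates 1 to 3 were below all vehicle libraries, and replicate 4 was within the vehicle range. The log2 fold change was -0.13 (SE 0.0895, edgeR adjusted p = 0.687, interval 0.804- to 1.04-fold). Without IL-1β replicate 4, on which the overlap of the groups rests, it was -0.17 (edgeR unadjusted p = 0.035, adjusted p = 0.303).

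miR-431, described in muscle as a regulator of Pax7, was the only hairpin with a dominant 5p arm. For miR-431-5p the vehicle replicates 1 to 4 gave 1314, 1284, 1174 and 1332 normalized CPM. The IL-1β replicates 1 to 4 gave 1182, 1167, 1149 and 1008. A single pair of libraries overlapped, as vehicle replicate 3 was below IL-1β replicate 1. The mean was 1276 ± 70.8 under vehicle and 1126 ± 80.4 under IL-1β (SD, n = 4). The log2 fold change of -0.18 (SE 0.0842, interval 0.783- to 0.997-fold) had an unadjusted p of 0.0445 and an edgeR adjusted p of 0.425. It was below 0 in all 16 alternative fits, from -0.23 to -0.12, with edgeR or DESeq2 adjusted p from 0.299974 to 0.631.

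miR-431-3p was at 47.7, 20.02, 26.2 and 43.6 normalized CPM in vehicle replicates 1 to 4. The IL-1β libraries in the same order had 20.8, 27.8, 27.8 and 25.1. Vehicle replicates 1 and 4 were above every other library, and vehicle replicate 2 was below all of them. The log2 fold change was -0.32 (SE 0.258, edgeR adjusted p = 0.753, interval 0.555- to 1.16-fold), and it depended on single libraries. It was -0.10 without vehicle replicate 1 (edgeR adjusted p = 0.898) and -0.54 without vehicle replicate 2 (edgeR adjusted p = 0.448).

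miR-433-3p, described in osteoblasts as a repressor of Runx2, was at 1016, 1080, 1182 and 1030 normalized CPM in vehicle replicates 1 to 4. The IL-1β libraries in the same order had 1110, 1138, 1016 and 826. As for miR-434-3p, IL-1β replicate 4 was the lowest library. IL-1β replicates 1 and 2 lay within the vehicle range and replicate 3 was at its lower end. The log2 fold change was -0.08 (SE 0.0966, edgeR adjusted p = 0.807, interval 0.826- to 1.09-fold) and 0.015 without IL-1β replicate 4 (edgeR adjusted p = 0.976). miR-433-5p had 2, 2, 3 and 2 counts with vehicle and 2, 4, 2 and 3 counts with IL-1β. Both groups were at about the floor of 3 counts, and no fold change is given (edgeR adjusted p = 0.753).

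miR-136-3p was the arm with the largest positive log2 fold change among the 8. It was at 82.7, 62.1, 84.97 and 88.8 normalized CPM in vehicle replicates 1 to 4. The IL-1β libraries in the same order had 119.97, 121, 74.5 and 78.96. IL-1β replicates 1 and 2 were above every vehicle library, and replicates 3 and 4 were within the vehicle range. The mean was 79.6 ± 11.98 with vehicle and 98.5 ± 25.2 under IL-1β (SD, n = 4). The log2 fold change was 0.34 (SE 0.165, unadjusted p = 0.0532, edgeR adjusted p = 0.462, interval 0.997- to 1.6001-fold). Without IL-1β replicate 2 it was 0.17 (edgeR adjusted p = 0.784), without IL-1β replicate 4 it was 0.45 (edgeR adjusted p = 0.135), and without vehicle replicate 2 it was 0.22 (edgeR adjusted p = 0.755). miR-136-5p had 0, 1, 5 and 0 counts with vehicle and 1, 2, 0 and 2 with IL-1β, 11 in all, so that no fold change is given (edgeR adjusted p = 0.984).

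**Figure D3:**
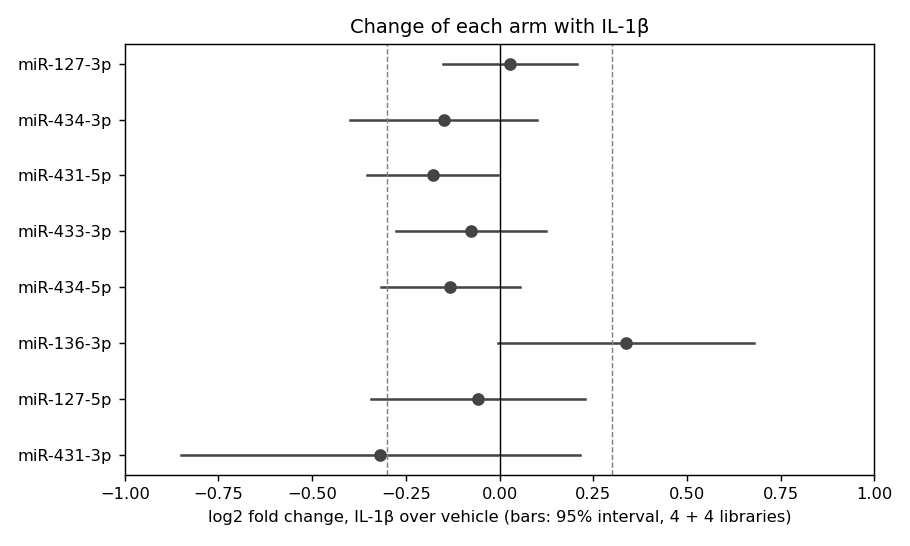
Log2 fold change of IL-1β over vehicle for the 8 arms with enough counts (points, edgeR, 4 + 4 libraries) with its 95% interval (bars). Dashed lines mark the log2 fold change threshold of 0.3. The interval of miR-431-5p ends just below 0, and the 7 others include 0.

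The miR-136 hairpin is overlapped on the minus strand by Mir3071 (chr12:109595318-109595397). miR-136-5p shares 20 bases of genome with miR-3071-3p, and miR-136-3p shares 19 with miR-3071-5p. miR-3071-3p had 103 counts over the 8 libraries, against 11 for miR-136-5p across from it, and miR-3071-5p had 33. Neither arm of miR-3071 was called. For miR-3071-3p the log2 fold change was 0.05 (SE 0.318, edgeR adjusted p = 0.992), and for miR-3071-5p, at 1 to 10 counts per library, none is given (edgeR adjusted p = 0.878). Whether strand was used in counting was not stated, and without strand the reads of the overlapping arms cannot be told apart. Mir432, between Mir434 and Mir136, gave 1 count in all. This allows no statement on its change.

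The arms of each hairpin were then set against each other. Both come from the same precursor, and usually only a single strand is kept by the Argonaute protein. The 3p arm dominated in 4 hairpins and the 5p arm in miR-431. In summed counts the dominant arm of miR-127 exceeded the other 1915-fold, that of miR-433 426-fold, that of miR-434 65.8-fold, that of miR-136 63.3-fold and that of miR-431 41.8-fold. The values of miR-433 and miR-136 rest on 20 and 11 counts of the minor arm over all 8 libraries, so that their place in this order is uncertain. For miR-136 the ratio also depends on whether strand was used in counting. Its 5p arm overlaps miR-3071-3p, which had 103 counts, and how these reads were assigned was not stated.

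The dominant arm of miR-127 held 99.94% to 99.96% of the counts of both arms across the 8 libraries. For miR-431 the dominant arm held 97.4% ± 0.904 under vehicle and 97.8% ± 0.324 under IL-1β (SD, n = 4). For miR-434 it held 98.5% ± 0.0673 and 98.4% ± 0.547 (SD, n = 4). The larger SD came from IL-1β replicate 4, at 97.6% against 98.6% to 98.7% in the other IL-1β libraries.

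The log2 ratio of 3p to 5p counts was tested in 142 hairpins with limma, and 1.41% of them were called. Limma called 0 of the 5 Rtl1 antisense hairpins. diffSpliceDGE of edgeR called 0 of miR-127, miR-431 and miR-434. None of the 5 had in limma an unadjusted p under 0.05, which 10 of all 142 hairpins had. The change of the ratio with IL-1β was 0.049 for miR-127 (SE 0.192, limma adjusted p = 0.941, 95% interval -0.33 to 0.43). For miR-431 it was -0.16 (SE 0.271, limma adjusted p = 0.941, 95% interval -0.70 to 0.37). For miR-434 it was -0.04 (SE 0.134, limma adjusted p = 0.941, 95% interval -0.31 to 0.22), and 0.18 without IL-1β replicate 4 (limma adjusted p = 0.621). For miR-433 and miR-136 no change of the ratio is given, because their minor arms had too few counts in each library.

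Because the hairpins are carried by a common transcript, their arms were also expressed per 100 counts of miR-127-3p in the same library, a measure that needs no scaling between libraries and was chosen after the data were seen. miR-434-3p gave 22.6, 22.2, 22.5 and 24.3 counts per 100 in vehicle replicates 1 to 4. In IL-1β replicates 1 to 3 it gave 23.6, 25.5 and 22.3. In IL-1β replicate 4 it gave 11.8, which was 0.507 of the mean of the other 7 libraries. The ratio of the most abundant pair of arms thus lay between 22.2 and 25.5 per 100 in 7 libraries.

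Of the 5 other arms plotted, 4 were below all other libraries in IL-1β replicate 4, where the denominator miR-127-3p was itself the highest of all libraries in normalized CPM (173805 against 132328 to 150776) and lowers each ratio. In normalized CPM, miR-434-5p was the highest of its group there and miR-127-5p lay within the vehicle range. miR-431-5p gave 0.580 counts per 100 in IL-1β replicate 4 against 0.778 to 0.953 in the other 7, and miR-433-3p gave 0.475 against 0.680 to 0.860. miR-127-5p gave 0.0404 against 0.0468 to 0.058, and miR-434-5p, by a narrow margin, gave 0.291 against 0.299811 to 0.384. miR-136-3p, at 0.0454 against 0.0412 to 0.0911, was within the range of the others. The TMM factor of this library was 0.932 against 0.985 to 1.04. The part of library preparation or of the cells of that culture in this difference was not tested.

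**Figure D4:**
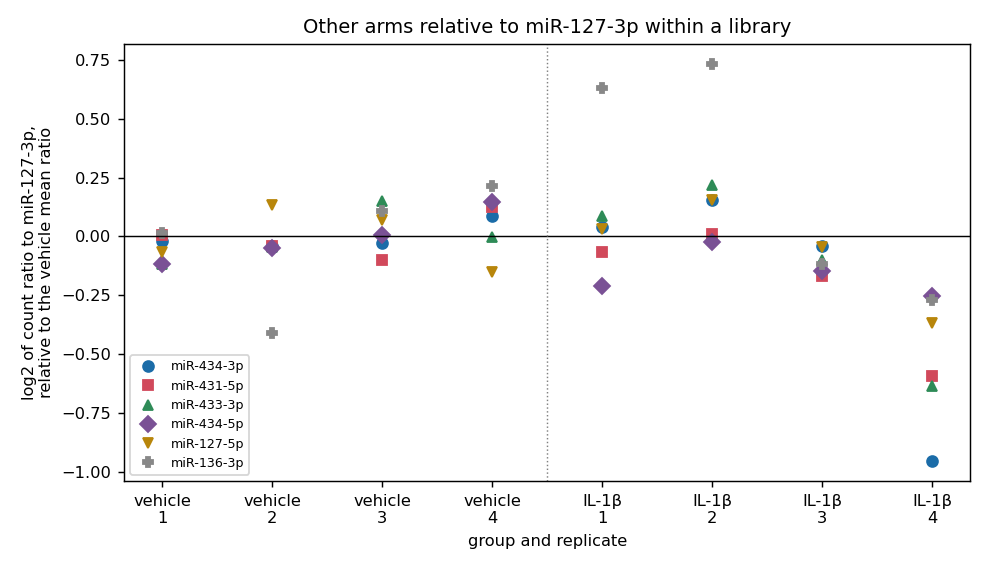
Log2 of the count ratio of 6 arms to miR-127-3p in each library, relative to the mean ratio of the 4 vehicle libraries (y axis), by group and replicate (x axis). In IL-1β replicate 4 all 6 arms lie below 0, miR-434-3p lowest, whereas in the other 7 libraries miR-434-3p stays near 0.

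The deviation of each library from its group mean was compared between arms on the log2 scale, over 8 libraries and for the 7 arms that averaged 50 counts or more. As a description, Pearson's r was -0.90 between miR-127-3p and miR-434-3p, 0.82 between miR-433-3p and miR-434-3p, 0.84 between miR-431-5p and miR-434-3p, and -0.72 between both arms of miR-434. Without IL-1β replicate 4 (7 libraries, chosen after the data were seen) the same values were -0.35, -0.46, 0.93 and 0.10, in that order. The direction thus turned for miR-433-3p with miR-434-3p and for the arms of miR-434, and no common direction among the arms is read from these values. These points share libraries and their scaling, and in IL-1β replicate 4 the deviation was -0.53 for miR-434-3p, -0.30 for miR-433-3p, -0.28 for miR-136-3p and 0.23 for miR-127-3p. Of 188 other miRNAs above the same minimum, those whose deviations were most like the mean of the 7 arms were miR-667-3p (r = 0.976), miR-497a-5p (0.958), miR-7046-3p (0.957), miR-455-3p (0.952) and miR-673-5p (0.930). Of these, miR-667 and miR-673 are encoded in the same imprinted region and the other 3 are not in its lists. The share of the region among the 188 was not counted, so that no excess of its miRNAs is read from this. Without IL-1β replicate 4 (7 libraries) the first 5 were miR-702-3p (r = 0.911), miR-7046-3p (0.909), miR-667-3p (0.895), miR-140-5p (0.892) and miR-1247-5p (0.870). There miR-455-3p ranked 9 (0.825), miR-497a-5p ranked 10 (0.817) and miR-673-5p ranked 23 (0.653), so that the order depended on this library.

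The other miRNAs of the imprinted region were described as a setting for the Rtl1 antisense group. In contrast to the 18.4% held by the latter, 97 other names from the region had a share of 2.09% ± 0.0516 under vehicle and 1.96% ± 0.103 under IL-1β (SD, n = 4). Over all miRNAs tested 1.95% (11 of 564) were called, and the counts in the lists that follow are small. Of 9 tested miRNAs on the Meg3 side of Rtl1, 1 was called lower (miR-540-3p, log2 fold change -0.46, edgeR adjusted p = 0.00467) and 0 higher. Their median log2 fold change was -0.22. Of 4 near Rian 0 were called, with a median of -0.33. Of 52 in the Mirg cluster, 1 was called lower (miR-381-3p, log2 fold change -0.37, edgeR adjusted p = 0.0323) and 0 higher, with a median of -0.10. The median over all 564 miRNAs was 0.0063. Both called miRNAs are named here after their values were seen. Whether the Rtl1 antisense arms differed from these neighbors in their response was not tested.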

How the data were processed

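The values deposited were whole-number counts for each mature miRNA, which the authors made with cutadapt, STAR and featureCounts on mm10. Settings for strand and for reads with several places were not given in the sources used here. The methods describe batch correction with RUVseq, and whether the deposited whole numbers carry it could not be told. They were treated as uncorrected. A listed length in nucleotides was also deposited. Testing required over 1 CPM in 4 or more of the 8 libraries. Groups were compared with edgeR 4.0.16 (TMM scaling, robust quasi-likelihood test, two-sided) in R 4.3.3, with p-values adjusted by Benjamini-Hochberg over all tested miRNAs. SE was the log2 fold change divided by the square root of F. Arm ratios, log2((3p + 0.5)/(5p + 0.5)), were tested with limma 3.58.1 (trend, robust). Alternatives used DESeq2 1.42.0 and sva 3.50.0. Scripts were tested on simulated data. Hairpins and Rtl1 were located with GENCODE and RefSeq annotation of GRCm38. All 10 members were named by rule, with their neighbors, and the 5 most alike miRNAs. Members and lists were chosen with earlier results of these data known. No molecular identifiers were described, so floors cover counting error only.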

Additional observations from a re-analysis of the deposited data

Results flagged for a closer look

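In 4 of 34 groups of 4 libraries examined, a single library lay far from the other 3, where chance flags about 5% of groups. 3 of the 4 were values of IL-1β replicate 4, and they are not independent of each other. miR-434-3p was at 20508 normalized CPM in this library against 32884 to 33750 in the other IL-1β libraries. The share of the 3p arm was 97.6% for miR-434 (98.6% to 98.7% in the others) and 99.5% for miR-433 (99.70% to 99.71%), where the latter rests on 2 to 4 counts of the 5p arm. In IL-1β replicate 1 the 3p arm of miR-431 held 1.73% of the counts of both arms, against 2.33% to 2.43% in the other IL-1β libraries, and this rests on 13 counts.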

How the results depend on the processing

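The number of Rtl1 antisense arms past the threshold was 0 in all 16 alternatives. Over all miRNAs the number was 11, and it was 18 with a surrogate variable and 19 with the replicate block. When each library was left out in turn it ranged from 6 (without vehicle replicate 4) to 19 (without IL-1β replicate 4), and was 7 without vehicle replicate 2 or IL-1β replicate 3. Whether the replicate numbers pair the libraries was not settled. The correlations of deviations within numbers were 0.171, -0.345, 0.101 and -0.183. For vehicle replicates 1 and 3 the most alike IL-1β library had the same number, and for replicates 2 and 4 it did not. The main fits used the group only. The difference in summed share was below 0 in all 11 alternatives, from -0.59 to -0.27 percentage points when a library was left out and -0.07 on the scale of normalized CPM. With a library left out or with the replicate block the smallest possible p was 0.0571 or 0.125, so that these 9 tests could not pass 0.05 and say nothing of stability. The other 2, normalized CPM and the sum without miR-127-3p, gave p = 0.943 and 0.457 (exact permutation test). Changes close to 0 turned direction: miR-127-3p with library totals only (-0.00344), and when single libraries were left out (-0.054 to 0.049), miR-127-5p (-0.14 to 0.011), miR-433-3p (-0.16 to 0.015) and the arm ratios of miR-127 (-0.054 to 0.12), miR-431 (-0.40 to 0.0079) and miR-434 (-0.14 to 0.18). None of these was called, and the cause was not tested. Changes of the arm ratio of miR-433 and miR-136 were likewise left out. Fold changes of miR-433-5p and miR-136-5p were left out, since depth limits both.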
